A study of Mus musculus with 9 samples.

Results

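The genes described here encode the proteins of the cytosolic ribosome. They were taken from the deposited count table by symbol: Rpl or Rps, then digits, then at most 1 letter (a, l, x or y) and at most 1 digit, plus the stalk genes Rplp0, Rplp1 and Rplp2. The pattern found 88 symbols, of which 6 are annotated as pseudogenes (Rps4l, Rps12l1, Rpl32l, Rpl6l, Rps3a3 and Rps3a2) and were left out. The remaining 82 genes, of 53280 in the table, comprised 30 of the small subunit, 43 of the large subunit, 3 of the stalk and 6 paralogues (Rpl3l, Rpl7l1, Rpl10l, Rpl22l1, Rpl39l and Rps27l). No expression value entered this rule, but it was set with earlier results of these data known.

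The samples were neural retina of mouse pups at postnatal day 4. One group lacked Opn4, the gene of melanopsin, the photopigment of intrinsically photosensitive retinal ganglion cells, on both chromosomes (Opn4KO, 5 pools). The other was wildtype (Opn4WT, 4 pools). Pups of both groups were littermates from crosses of Opn4 heterozygotes, were kept in light of about 300 lux and were taken 6 to 7 h after lights on. Each pool joined 4 retinas of 2 animals of 1 genotype, so a pool averages its animals, and each pool gave 1 poly-A library. The labels give neither sex, strain nor litter.

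A ribosome joins a small subunit, which reads the messenger RNA, to a large subunit, which forms the peptide bond, and each subunit is a scaffold of ribosomal RNA covered by proteins that are mostly made in equal number. The messenger RNAs of these proteins are short and abundant, and they begin with a stretch of pyrimidines, the 5′ terminal oligopyrimidine tract, through which growth signals via mTOR control their translation. In the developing retina, dividing progenitors are among the cells that need many new ribosomes. The genes are also among the most frequently retrotransposed in mammals, and the genome holds many intronless copies of them, called processed pseudogenes.

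The starts of these genes are shown because that shared tract is the best known sequence feature of the family. RefSeq promoter windows (GRCm38.p6) matched 62 of the 82 genes by symbol. Each line gives 30 bases, 15 before and 15 from the annotated start, on the gene's strand, with the letters CTTTCC in capitals. The 6 genes were picked for this match from 10 found with it in this window, and most of the 62 lack it there.
Rpl15 (chr14:18270972-18271001, minus strand): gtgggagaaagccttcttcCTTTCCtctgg
Rpl38 (chr11:114668565-114668594, plus strand): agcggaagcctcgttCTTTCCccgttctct
Rpl35 (chr2:39005117-39005146, minus strand): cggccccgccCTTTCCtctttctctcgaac
Rps10 (chr17:27635230-27635259, minus strand): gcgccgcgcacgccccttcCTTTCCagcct
Rpl28 (chr7:4792950-4792979, plus strand): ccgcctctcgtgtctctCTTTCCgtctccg
Rps27 (chr3:90213634-90213663, minus strand): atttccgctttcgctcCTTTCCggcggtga

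CTTTCC stood on the gene's strand between 50 bases before and 50 after the start in 19 of the 62 genes (30.6%), against 5.43% of all 27025 genes with a window. On either strand the shares were 33.9% and 10.3%. A run of at least 8 C or T bases on the gene's strand, within 15 bases before to 15 after the start, was found in 27 of the 62 (43.5%) and in 13.9% of all genes; CTTTCC consists of pyrimidines, so it can lie within such a run. CGGAAG, the core letters bound by ETS factors, occurred on either strand of the 300 bases in 66.1% of the 62 and in 18.8% of all genes. A match describes the letters only, and annotated starts can lie some bases off the true ones.

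Opn4 (chr14:34590618-34600142, minus strand) was measured first, as a check of the labels. It was at 1.36 ± 0.29 CPM (SD, n = 5; CPM, counts per 1000000 after TMM scaling of the libraries) in the knockout and at 11.7 ± 0.27 CPM (SD, n = 4) in the wildtype. The log2 fold change, knockout minus wildtype here and throughout, was −3.10 (SE 0.14; adjusted p = 1.28e-07, edgeR quasi-likelihood test with Benjamini-Hochberg adjustment). The exact two-sided permutation test over the 126 splits of the 9 pools gave p = 0.00794, the smallest it can give.

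Libraries held 65.5 M to 86.1 M counts (M, 1000000). Wildtype pool 3 stood apart in ways that touch these genes. It held 14.1 CPM of Xist, the X-inactivation RNA expressed from one X chromosome in female cells, against 710 to 1066 CPM in the other 8 pools. Ddx3y, a Y-linked gene, was at 70.1 CPM there and at 24.7 to 41.3 CPM elsewhere, and Hbb-bs, a beta-globin gene, at 101 CPM against 22.5 to 64.3. In that pool, genes other than the 82 deviated from their own mean over pools by transcript length. The median log2 deviation was 0.11 for the 564 genes of up to 600 bases, 0.063 for genes of 1001 to 2000 bases and −0.14 for the 2064 genes longer than 4500. In each of the other 8 pools every length class had a median between −0.033 and 0.037. Within that range knockout pool 1 ran the other way, from −0.033 for genes of up to 600 bases to 0.036 for those longer than 4500. The median log2 fold change of these other genes, knockout minus wildtype over all pools, was −0.027 in the shortest class and 0.050 in the longest. The median transcript length of the 82 genes was 704 bases. Results that rest on wildtype pool 3 are therefore also given without it, which leaves the smaller trend of knockout pool 1 in place.

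The 82 genes were a large part of the transcript abundance of the retina. Their share of the summed TPM (transcripts per 1000000, an abundance per transcript length) was 9.54, 9.89, 10.2, 9.83 and 9.89% in knockout pools 1 to 5. It was 10.4, 10.04, 11.1 and 9.80% in wildtype pools 1 to 4. Wildtype pool 3 was the highest and knockout pool 1 the lowest, and the other pools of both genotypes lay between 9.80 and 10.4% and overlapped. The knockout mean was 9.86 ± 0.22% (SD, n = 5) and the wildtype mean 10.3 ± 0.58% (SD, n = 4), a difference of −0.48 percentage points, or −0.22 without wildtype pool 3.

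The same pools were highest and lowest in the counts, which are not divided by length. There the genes took 2.47, 2.60, 2.67, 2.58 and 2.63% in the knockout and 2.77, 2.66, 3.11 and 2.61% in the wildtype. Because these are bulk samples, fewer cells of a type and less RNA per cell cannot be told apart.

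**Figure D1:**
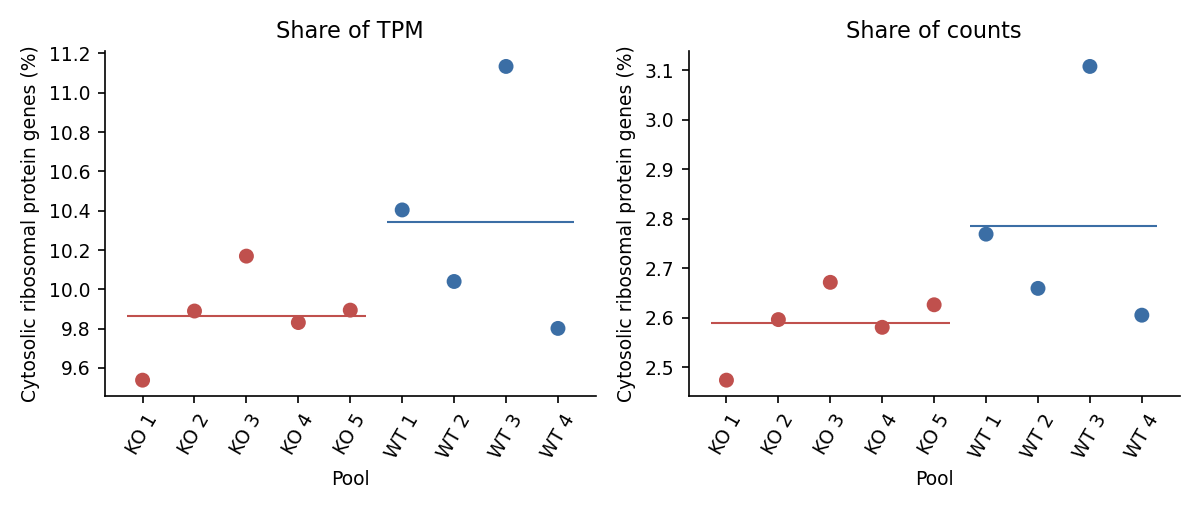
Share of all TPM (left) and of all counts (right) held by the 82 ribosomal protein genes in each pool, in percent; points are pools, horizontal lines are group means, red is knockout (KO) and blue wildtype (WT), and the axes do not start at 0. Wildtype pool 3 is the highest point in both panels (11.1% of TPM, 3.11% of counts) and knockout pool 1 the lowest (9.54% and 2.47%).

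Levels within the family were compared per length, in TPM. The deposited TPM columns do not have equal sums: they ran from 953960 in knockout pool 1 to 1084000 in wildtype pool 3, the pools that were lowest and highest for the family, so single TPM values carry that scale and the shares above do not. Of the 82 genes, 52 had a mean above 1000 TPM and 76 above 100 TPM. The median gene of the small subunit was at 1377 TPM, that of the large subunit at 1092 TPM, that of the stalk at 1408 TPM and that of the paralogues at 33.6 TPM. The highest gene was Rpl13a (chr7:45125558-45128761, minus strand), a large-subunit protein also known for a role in translational silencing after interferon. Its level was 3760, 4046, 4590, 4296 and 4236 TPM in the knockout and 4378, 4100, 4998 and 3997 TPM in the wildtype. The groups overlapped and wildtype pool 3 was the highest (log2 fold change in the counts −0.083, SE 0.060, adjusted p = 0.549, edgeR; −0.018 without that pool).

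Rps14, a small-subunit protein near the decoding site's platform, had 2819, 3073, 3277, 3104 and 3093 TPM in the knockout and 3120, 3002, 3844 and 2918 TPM in the wildtype. Its groups overlapped, with wildtype pool 3 the highest (log2 fold change in the counts −0.069, SE 0.063, adjusted p = 0.655, edgeR; 0.0091 without that pool). Rplp1, one of the acidic stalk proteins that recruit elongation factors, was also among the highest, with a mean of 2768 TPM.

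The lowest genes were paralogues. Rpl39l, a paralogue of Rpl39 known from testis, had 0.238, 0.242, 0.421, 0.693 and 1.65 TPM in the knockout and 0.594, 0.124, 0 and 0.114 TPM in the wildtype. Rpl10l, a retrotransposed paralogue of Rpl10 used in male meiosis, had 1.08, 1.27, 1.44, 0.615 and 1.23 TPM in the knockout and 0.979, 0.351, 0.652 and 1.53 TPM in the wildtype. Both overlapped between genotypes, Rpl39l had too few counts and TPM for either test, and Rpl10l had a count of 0 in every pool. Rpl3l, the paralogue of Rpl3 of heart and skeletal muscle, had 2.18, 3.15, 3.38, 1.98 and 2.00 TPM in the knockout and 1.80, 3.82, 2.13 and 1.40 TPM in the wildtype, again overlapping (log2 fold change in the counts 0.28, SE 0.23, adjusted p = 0.62, edgeR). The parents were far higher, Rpl39 at 591 to 817 TPM and Rpl10 at 690 to 916 TPM. For 3 genes the TPM were low relative to their counts per length: Rpl5 had 76.4 TPM and 410 CPM per kb, Rpl12 49.0 and 207, and Rps12 101 and 299, where the median gene had 2.70 TPM for each CPM per kb. The place of Rpl5, Rpl12 and Rps12 in the order of levels is uncertain for that reason.

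Genotype was then tested in the counts across all 21150 genes that passed the expression filter. Of the 82 genes, 80 were tested, all but Rpl10l and Rpl39l, and 1 was called at an adjusted p under 0.05, which is 1.25% of them beside 3.59% of all genes tested. That gene was Rpl13, which fell (2.25% of all genes were called lower). None was called higher (1.34% of all genes; 0 of the 80 also at an unadjusted p under 0.05). At an unadjusted p under 0.05, 27 of the 80 were lower and 0 higher (edgeR), a share of 33.8%. Of all genes 16.5% had such a p, 7.91% lower and 8.6% higher. The log2 fold change was negative for 76 of the 80, against 49.6% of all genes. The median over the 80 was −0.10 (quartiles −0.13 and −0.075), and over all genes 0.0012, while the median SE of a single gene was 0.056. Negative values were thus small and spread over nearly the whole family, and single genes other than Rpl13 did not pass the test.

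Without wildtype pool 3 the difference was smaller. The median over 81 tested genes, which now included Rpl39l, became −0.045 (quartiles −0.071 and −0.018). Negative values remained for 68 of the 81 (49.5% of all genes), and 7 were lower at an unadjusted p under 0.05, a share of 8.64% beside 7.17% of all genes. Of the 80 genes tested in both fits, 76 came closer to 0. Rpl13 was again the 1 gene called (log2 fold change −0.16, adjusted p = 0.0321, edgeR), beside 2.96% of all genes. The other 6 with an unadjusted p under 0.05 were Rpl14, Rpl21, Rpl22l1, Rps16, Rps19 and Rps26.

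**Figure D2:**
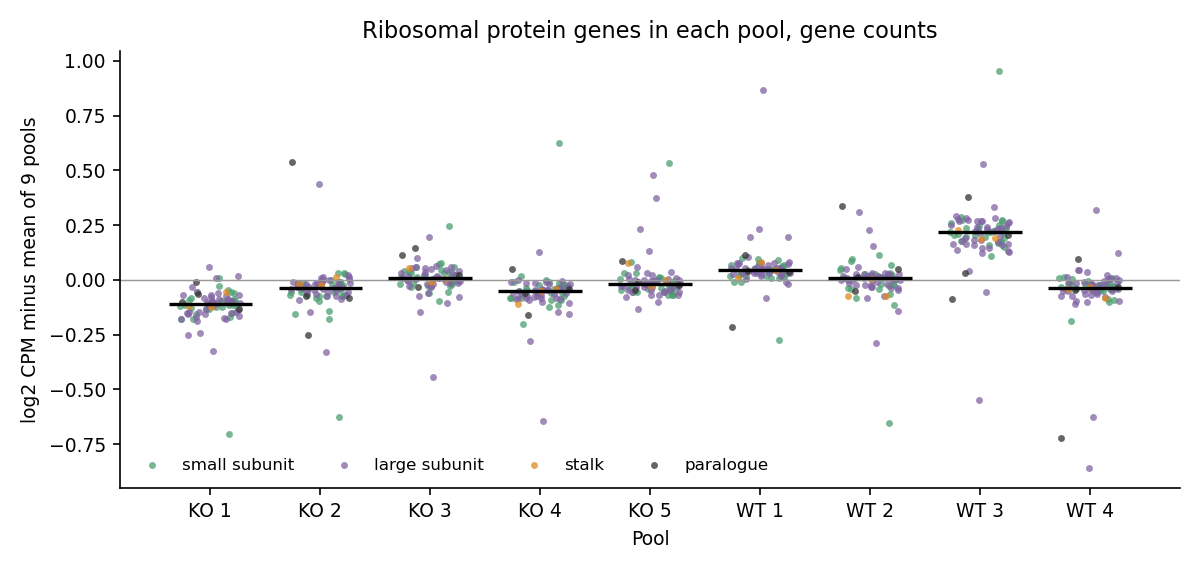
Level of the 80 tested ribosomal protein genes in each pool, as log2 CPM minus the gene's mean over the 9 pools; points are genes coloured by role and black bars are medians. The median is 0.22 in wildtype pool 3 and −0.11 in knockout pool 1, and lies between −0.050 and 0.044 in the other 7 pools; the widely scattered points include genes with pseudogene copies (Rps27a, Rpl17, Rpl29) and the low paralogue Rpl3l.

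The genes shared their highest and lowest pools. Wildtype pool 3 was the highest of the 9 pools for 73 of the 80 genes in the counts and for 77 of the 82 in TPM, while it was the highest pool for 18.6% of all genes. Knockout pool 1 was the lowest pool for 54 of the 80 genes in the counts and for 64 of the 82 in TPM, against 15.5% of all genes. With the TPM columns brought to equal sums, these were 72 and 41 of the 82. The median log2 deviation of the 80 genes was 0.22 in wildtype pool 3, above the 0.11 of the shortest other genes in that pool, and −0.11 in knockout pool 1. What part transcript length, sex or the makeup of these pools has in the difference between genotypes was not tested.

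**Figure D3:**
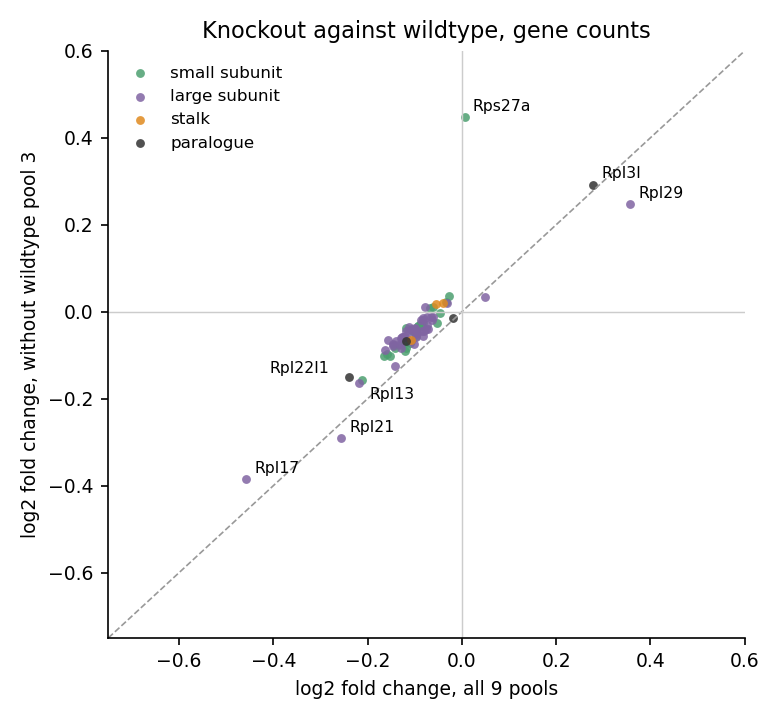
Log2 fold change (knockout minus wildtype) of each ribosomal protein gene in the counts, with all 9 pools on the x axis and without wildtype pool 3 on the y axis; the dashed line marks equal values. Most genes lie above the line and nearer 0, with medians of −0.10 and −0.045, and of the genes far from the cluster, Rps27a, Rpl29, Rpl17 and Rpl21 have near-identical pseudogenes and Rpl3l is a low paralogue.

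By role, the median log2 fold changes ran from −0.10 to −0.055. In the small subunit 29 of 30 genes were negative, with a median of −0.10, and 11 had an unadjusted p under 0.05. In the large subunit 41 of 43 were negative, with a median of −0.10, and 14 had an unadjusted p under 0.05. All 3 stalk genes were negative, with a median of −0.055, and Rplp0, the anchor of the stalk, had an unadjusted p under 0.05. Of the 4 paralogues tested, 3 were negative, with a median of −0.068. Without wildtype pool 3 the medians were −0.043 for the small subunit, −0.049 for the large subunit, 0.017 for the stalk, where the direction turned, and −0.013 for the paralogues. This last median is over 5 paralogues, because Rpl39l (log2 fold change 1.14) was tested only in that fit. It is therefore not over the same genes as the −0.068. Differences between the roles were not tested.

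In 9 of the 80 genes (11.2%) every knockout pool lay below every wildtype pool, beside 4.37% of all genes. These were Rpl3, Rpl13, Rpl14, Rpl22, Rpl22l1, Rps16, Rps19, Rps20 and Rps26. Rps19, a small-subunit protein whose loss causes Diamond-Blackfan anaemia in people, shows the size of such a difference. Its level was 212, 221, 228, 223 and 226 CPM in the knockout and 248, 235, 273 and 231 CPM in the wildtype. The highest knockout pool and the lowest wildtype pool were 228 and 231 CPM, so the groups were separate by a narrow margin (log2 fold change −0.15, SE 0.050, adjusted p = 0.132, edgeR; −0.10 without wildtype pool 3).

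Rps16, a small-subunit protein near the decoding centre, had 292, 308, 322, 311 and 311 CPM in the knockout and 339, 329, 392 and 326 CPM in the wildtype. Its groups were separate too, with wildtype pool 3 well above the rest (log2 fold change −0.17, SE 0.056, adjusted p = 0.140, edgeR; −0.10 without that pool).

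The TPM gave the same direction and no call. Summed per symbol and tested with limma on log2(TPM + 0.5), a scale that slightly understates changes of low genes, 0 of 81 genes were called, beside 2.16% of all 15296 symbols (0.621% higher, 1.54% lower). At an unadjusted p under 0.05, 4 genes were lower (Rpl5, Rpl7l1, Rpl22l1 and Rps16) and 0 higher, a share of 4.94%. Of all symbols 15.5% had such a p, 7.62% lower and 7.86% higher. The median log2 fold change was −0.094, with 77 of 81 negative, −0.031 without wildtype pool 3 and −0.069 with the columns brought to equal sums. The groups were separate for Rpl22l1 alone (1.23% beside 3.97%). In the authors' deposited table, 0 of 81 of these genes had a q under 0.05, beside 1.46% of all genes (0.648% higher, 0.815% lower), and the lowest q in the authors' deposited table was 0.24, for Rpl5, which binds 5S ribosomal RNA and, when free, the p53 inhibitor Mdm2.

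Rpl13 (chr8:123102350-123105244, plus strand), a large-subunit protein, was the 1 gene called in the counts. Its level was 564, 611, 594, 586 and 570 CPM in the knockout and 671, 650, 756 and 644 CPM in the wildtype. Every knockout pool lay below every wildtype pool, and the log2 fold change was −0.22 (SE 0.051, adjusted p = 0.0326, edgeR). In TPM the groups overlapped (1795, 1960, 2048, 1982 and 2026 against 2089, 1998, 2456 and 1994), with a log2 fold change of −0.12 (SE 0.073, adjusted p = 0.492, limma). The call in the counts was lost when any one of knockout pools 1, 3, 4 and 5 or wildtype pool 1 was left out (adjusted p 0.0581 to 0.0751, edgeR, each for the Rpl13 log2 fold change).

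Rpl13 has near-identical copies that were higher in the knockout. Gm12918 (chr4:10848420-10849055, plus strand) and Gm15710 (chr5:92140294-92140929, minus strand, inside Uso1 on the opposite strand) are processed pseudogenes. Gm12918 matches the Rpl13 transcript over all of its 636 bases, and Gm15710 differs from it at 1 base.

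Gm12918 had 20.05, 18.6, 30.5, 32.0 and 42.3 CPM in the knockout and 10.7, 12.4, 13.3 and 10.7 CPM in the wildtype. All knockout pools were above all wildtype pools, and it rose by a log2 fold change of 1.29 (SE 0.21, adjusted p = 0.00311, edgeR). Gm15710 had 22.7, 22.8, 35.5, 36.1 and 47.7 CPM in the knockout and 15.3, 14.3, 19.5 and 14.4 CPM in the wildtype, and rose by 1.05 (SE 0.20, adjusted p = 0.00891, edgeR). In TPM, Gm12918 was listed at 0 in every pool and Gm15710 at 0.692 to 5.86.

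With Rpl13 and its 7 near-identical pseudogenes summed, the counts were 614, 659, 669, 665 and 671 CPM in the knockout and 704, 684, 797 and 675 CPM in the wildtype. The groups stayed separate by 671 against 675 CPM, and the log2 fold change was −0.13 (SE 0.053, adjusted p = 0.245, edgeR). The sources used here do not say how the deposited counts placed reads that match several of these rows.

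Rps26, a small-subunit protein at the exit channel of the messenger RNA, had the same kind of pair. Its level was 237, 266, 266, 233 and 258 CPM in the knockout and 288, 286, 325 and 269 CPM in the wildtype (log2 fold change −0.21, SE 0.060, adjusted p = 0.0758, edgeR). Its copy Rps26-ps1 (chr8:107439131-107439579, minus strand, inside Wwp2 on the opposite strand) had 13.3, 2.56, 14.7, 27.3 and 11.4 CPM in the knockout and 3.01, 4.58, 4.35 and 3.12 CPM in the wildtype, and rose by 1.88 (SE 0.46, adjusted p = 0.0395, edgeR). Knockout pool 2 lay below all wildtype pools for Rps26-ps1, so those groups overlapped. In TPM, Rps26-ps1 was listed at 0.370, 0, 0.915, 0.413 and 1.05 in the knockout and 0.680, 1.53, 2.96 and 2.06 in the wildtype. At these low TPM values the rise was not seen. With its near-identical copies summed, Rps26 had a log2 fold change of −0.15 in the counts (SE 0.055, adjusted p = 0.163, edgeR).

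Copies were searched for every gene of the family. Of the 82 genes, 78 had at least 1 pseudogene at least 95% identical over at least 50% of the copy, 586 in all in the count table, and Rpl21 had the most, 59. Of the 344 copies tested, 5 were called (1.45%, beside 3.59% of all genes): Gm12918, Gm15710 and Rps26-ps1 higher, Gm8210 and Gm15454, copies of Rpl29, lower. The median gene kept 95.0% of the summed counts in its own row. Where the copies were added to their genes, 0 of 80 genes were called in the counts (lowest adjusted p = 0.107; 24 lower and 0 higher at an unadjusted p under 0.05, edgeR), 79 were negative and the median was −0.098.

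Rpl29 (chr9:106429454-106431568, plus strand), a large-subunit protein, was uneven across pools in both TPM and counts. Its TPM were 1129, 1231, 1301, 1243 and 1221 in the knockout, and 1291, 1285, 780 and 617 in the wildtype. Wildtype pools 3 and 4 lay far below all other pools. In those same pools the processed pseudogenes Gm8210 (chr1:43189156-43189638, plus strand, inside Fhl2 on the opposite strand) and Gm13841 (chr5:115801677-115802159, minus strand) were high.

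Gm8210 and Gm13841 each had 3.09, 4.21, 4.83, 5.97 and 4.98 TPM in the knockout and 3.25, 2.50, 330 and 271 TPM in the wildtype, with equal values for both in every pool. Their annotated sequences of 483 bases differ from each other at 0 bases. Both match the coding sequence of Rpl29, bases 42 to 524 of a transcript of 583 bases, with 3 differences: C113A, C341T and T464C, counted from 1 at the 5′ end of that transcript and lying at chromosome 9 positions 106430342, 106431266 and 106431389. The 30 bases around each are shown because these letters are where the copies differ from Rpl29 within the matched stretch; the differing base is in capitals.
Rpl29 at C113A: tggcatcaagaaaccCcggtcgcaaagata
copies at C113A: tggcatcaagaaaccAcggtcgcaaagata
Rpl29 at C341T: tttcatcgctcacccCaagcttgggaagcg
copies at C341T: tttcatcgctcacccTaagcttgggaagcg
Rpl29 at T464C: ggcttcagctccagcTcaggctcccaaagg
copies at T464C: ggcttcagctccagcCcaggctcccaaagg

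The sum of the 3 rows was 1135, 1239, 1311, 1255 and 1231 TPM in the knockout and 1297, 1290, 1440 and 1160 TPM in the wildtype. On this sum wildtype pools 3 and 4 no longer stood apart as a pair: pool 3 was the highest of all, as for most of the family, and pool 4 lay between knockout pools 1 and 5. The counts showed the same pattern, with 113 and 91.4 CPM of Rpl29 in wildtype pools 3 and 4 against 173 to 225 CPM in the other 7, and 90.7 and 77.5 CPM of Gm8210 against 5.52 to 9.98 CPM. Gm8210 was called lower in the knockout (log2 fold change −2.51, SE 0.59, adjusted p = 0.0326, edgeR), which rests on these pools, since wildtype pools 1 and 2, at 9.53 and 8.61 CPM, lay within the knockout range.

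Rpl29 itself had a log2 fold change of 0.36 in the counts (SE 0.19, adjusted p = 0.380, edgeR) and 0.37 in TPM. With its 34 near-identical copies in the counts added, the log2 fold change turned to −0.15 there (SE 0.056, adjusted p = 0.204, edgeR). In TPM, where 34 copies besides Gm8210 and Gm13841 were listed and all were added, it turned to −0.070 (adjusted p = 0.680, limma).

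**Figure D4:**
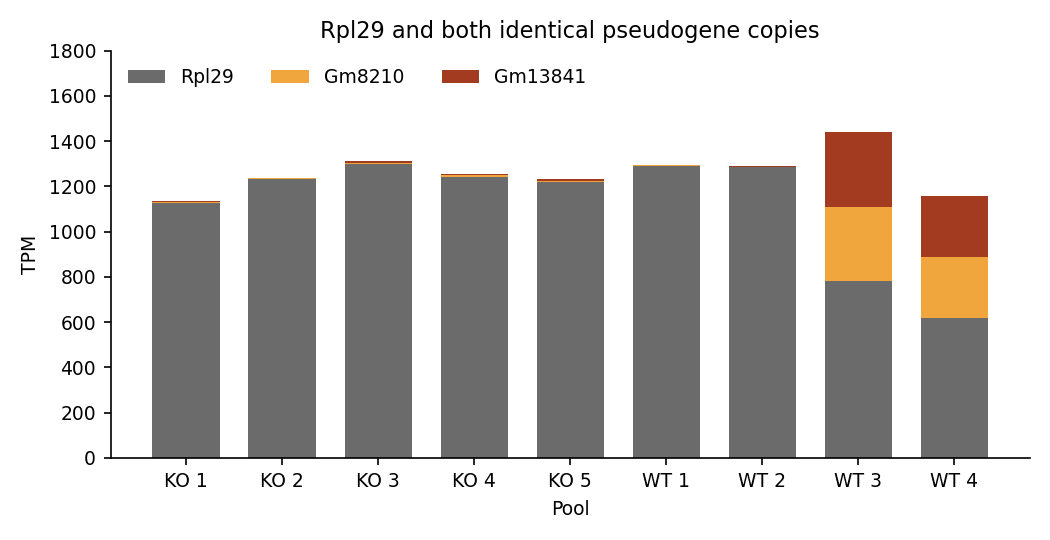
TPM of Rpl29 (grey) and of the pseudogenes Gm8210 (orange) and Gm13841 (brown), stacked, in each pool. In wildtype pools 3 and 4 Rpl29 is at 780 and 617 TPM while the copies reach 330 and 271 TPM each, and the stacked sums of 1440 and 1160 TPM lie near those of the other pools (1135 to 1311).

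The family's median coefficient of variation (CV, SD over mean across the 9 pools) was 7.27% in the counts, and 6 of the 80 tested genes were above 14%: Rpl29 (24.6%), the low paralogue Rpl3l (23.4%) and the 4 genes described next. Rps27a, which encodes a ubiquitin fused to a small-subunit protein, had a CV of 43.5%, with 126, 133, 243, 316 and 296 CPM in the knockout and 169, 130, 397 and 191 CPM in the wildtype. Pools of both genotypes were spread over the whole range. Its copy Rps27a-ps2 (chr9:83409660-83410126, plus strand, inside Lca5 on the opposite strand), which differs from the Rps27a transcript at 1 of 467 bases, A507G counted from 1 at the transcript's 5′ end, was lowest where Rps27a was highest, with 96.1, 98.8, 64.8, 32.8 and 42.1 CPM in the knockout and 92.7, 100.3, 30.6 and 77.3 CPM in the wildtype. The stretches around that base are shown because it tells the copy from its gene; the differing base is in capitals.
Rps27a: gtgtccttctgatgaAtgtggtgctggagt
Rps27a-ps2: gtgtccttctgatgaGtgtggtgctggagt

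With its copies summed the CV of Rps27a was 21.0%, and in TPM, where it had 1304 to 1746 TPM, it was 8.71%. Rpl17, a large-subunit protein at the exit of the peptide tunnel, kept 34.7% of the summed counts in its own row, and its CV was 38.7% alone, 6.71% with copies and 7.60% in TPM. Rpl17 had 101, 128, 93.4, 81.2 and 177 CPM in the knockout and 232, 141, 183 and 82.2 CPM in the wildtype, and its log2 fold change went from −0.46 alone to −0.098 with copies.

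Rpl7a, which kept 42.7% of the summed counts, went from a CV of 16.7% to 5.37%. Rpl21, which kept 18.8%, went from 14.95% to 4.98%. How the division of reads among copies enters these single rows was not tested, and the values of Rps27a, Rpl17, Rpl7a, Rpl21 and Rpl29 are uncertain for that reason.

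**Figure D5:**
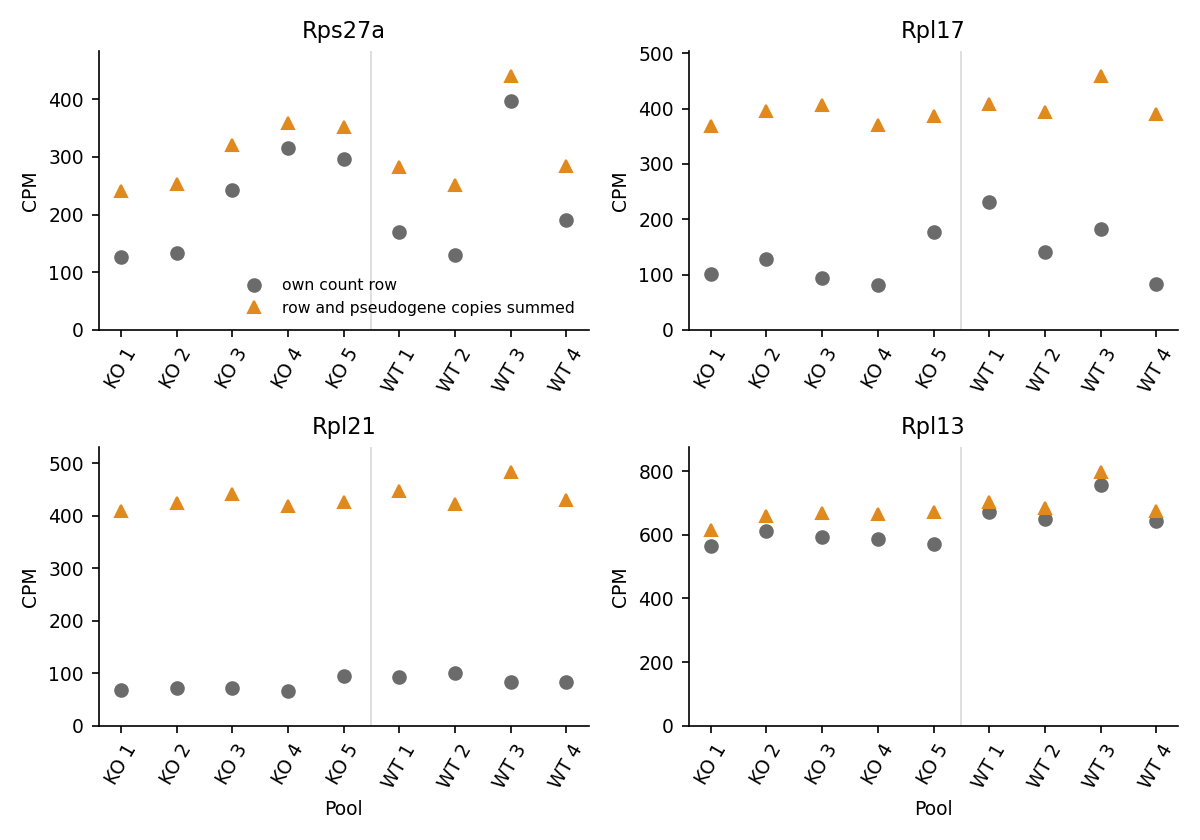
CPM of Rps27a, Rpl17, Rpl21 and Rpl13 in each pool, as the gene's own count row (grey circles) and summed with its near-identical pseudogenes (orange triangles). The rows of Rps27a and Rpl17 vary with CVs of 43.5% and 38.7%, and the sums with 21.0% and 6.71%; for Rpl13 the sums of both genotypes come closer (671 against 675 CPM at the nearest pools).

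Some paralogues can replace their parent in the ribosome. Paralogues were set against their parents per length, in 4 comparisons by exact two-sided permutation tests, adjusted over the 4. Rpl22l1, which substitutes for the RNA-binding large-subunit protein Rpl22, had 265, 243, 280, 258 and 281 TPM in the knockout and 289, 290, 380 and 297 TPM in the wildtype. Its groups did not overlap in TPM or in the counts, with a log2 fold change in the counts of −0.24 (SE 0.077, adjusted p = 0.118, edgeR), or −0.15 without wildtype pool 3. Rpl22 had 878, 938, 1062, 882 and 984 TPM in the knockout and 985, 998, 1121 and 975 TPM in the wildtype. Rpl22l1 was at 28.04 ± 1.8% of Rpl22 in the knockout (SD, n = 5) and 30.7 ± 2.2% in the wildtype (SD, n = 4; exact permutation p = 0.103, adjusted 0.307).

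Rps27l, a p53 target that stands in for the zinc-finger protein Rps27, had 282, 295, 328, 309 and 315 TPM in the knockout and 327, 324, 378 and 309 TPM in the wildtype. Its groups overlapped. Rps27 had 2335, 2429, 2574, 2384 and 2512 TPM in the knockout and 2647, 2441, 2987 and 2374 TPM in the wildtype, among the highest of the family. Rps27l was at 12.5 ± 0.37% of Rps27 in the knockout (SD, n = 5) and at 12.8 ± 0.41% in the wildtype (SD, n = 4; exact permutation p = 0.230, adjusted 0.307).

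Rpl7l1, related to the large-subunit protein Rpl7, had 57.7, 59.0, 67.3, 66.3 and 56.4 TPM in the knockout and 77.6, 64.2, 68.5 and 66.3 TPM in the wildtype. Rpl7 had 1299, 1399, 1500, 1450 and 1401 TPM in the knockout and 1458, 1412, 1656 and 1371 TPM in the wildtype. Both overlapped between genotypes. The Rpl7l1 share of Rpl7 was 4.35 ± 0.22% in the knockout (SD, n = 5) and 4.71 ± 0.50% in the wildtype (SD, n = 4; exact permutation p = 0.198, adjusted 0.307). Rpl3, a core large-subunit protein, had 890, 974, 1004, 976 and 981 TPM in the knockout and 1011, 980, 1123 and 985 TPM in the wildtype. Rpl3l was at 0.262 ± 0.064% of Rpl3 in the knockout (SD, n = 5) and 0.225 ± 0.11% in the wildtype (SD, n = 4; exact permutation p = 0.524, adjusted 0.524). None of the 4 ratios passed the threshold. Rpl39l and Rpl10l were too low for a ratio.

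Chromosome 14, which carries Opn4, holds 2 of the genes. Rps24 (chr14:24487125-24496959, plus strand), a small-subunit protein whose transcripts are spliced to different ends, had 2210, 2274, 2462, 2377 and 2375 TPM in the knockout and 2490, 2561, 2859 and 2364 TPM in the wildtype. The groups overlapped through wildtype pool 4 (log2 fold change in the counts −0.11, SE 0.044, adjusted p = 0.229, edgeR; −0.071 without wildtype pool 3). Rpl15 (chr14:18267823-18271391, minus strand), a large-subunit protein, had 584, 674, 740, 645 and 697 TPM in the knockout and 701, 615, 795 and 646 TPM in the wildtype, with overlapping groups (log2 fold change in the counts −0.084, SE 0.050, adjusted p = 0.445, edgeR; −0.045 without wildtype pool 3). The 4 X-linked genes, Rpl10, Rpl36a, Rpl39 and Rps4x, had mean levels of 679 to 1363 TPM and log2 fold changes in the counts of −0.16 to −0.085 (−0.089 to −0.032 without wildtype pool 3), within the range of the family.

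Single transcript rows of the TPM table carry no transcript names and were tested for 419 rows of these genes. Rows needed at least 1 TPM in at least 4 pools. Of these rows 1 passed the threshold, beside 0.176% of all 48763 rows. It was an Rpl41 row that met this requirement through the knockout pools alone, so its difference was partly fixed by the filter and is given as a description. It had 2.58, 0.988, 1.70, 2.58 and 3.36 TPM in the knockout and was listed at 0 in all wildtype pools. Rpl41, which encodes the smallest ribosomal protein, had a mean of 2498 TPM over all its rows, so the row is a very small part of the gene.

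Other parts of the translation machinery were given by lists that stand beside the family. Of 20 translation partners outside the symbol pattern, 0 were called and the median log2 fold change was −0.054 (−0.029 without wildtype pool 3). Among them Fau, which encodes a ribosomal protein fused to a ubiquitin-like one, had −0.17 (SE 0.061, adjusted p = 0.163, edgeR; −0.099 without that pool), Tpt1 −0.11 and Rack1 −0.092. At an unadjusted p under 0.05, 2 of the 20 were lower and 0 higher. Of 38 ribosome biogenesis genes, which assemble subunits in the nucleolus, 0 were called (4 lower and 2 higher at an unadjusted p under 0.05), and their median was −0.0052 (−0.032 without wildtype pool 3). Of 10 snoRNA host genes tested, several with the same pyrimidine start, 0 were called (2 lower, 0 higher unadjusted), with a median of −0.13 (−0.066 without wildtype pool 3). Of 78 proteins of the mitochondrial ribosome, 0 were called (3 lower, 1 higher unadjusted), with a median of −0.028 (−0.0049 without wildtype pool 3).

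Wildtype pool 3 was above the mean by a median of 0.23 in the snoRNA host genes, 0.11 in the translation partners and 0.093 in the mitochondrial ribosomal proteins, and at −0.033 in the biogenesis genes. Of 18 growth-control genes 1 was called, Max, the partner of Myc, which rose (log2 fold change 0.18, SE 0.046, adjusted p = 0.0473, edgeR). That call was lost without wildtype pool 3, where 0 of the 18 were called.

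Markers of the cell types that the tissue could hold were counted in the same edgeR fit. These lists were chosen with earlier results of these data known. Of 21 progenitor and cell cycle markers, 14 fell and 1 rose, with a median of −0.55. The largest changes were in Mcm3 of the replicative helicase (−0.77), the mitotic kinase Cdk1 (−0.74) and topoisomerase Top2a (−0.72), and the summed level was 3081 to 3685 CPM in the knockout and 4394 to 4492 CPM in the wildtype. Of 12 rod markers, 10 rose, with a median of 0.54, led by the channel subunits Cnga1 (0.82) and Cngb1 (0.67) and the transducin subunit Gngt1 (0.73). Their summed level was 3799 to 5385 CPM in the knockout and 3233 to 3567 CPM in the wildtype. Without wildtype pool 3 these counts were 14 lower and 8 higher, and without wildtype pool 4 the rod markers called were 6. Within the wildtype, pool 3 had a summed progenitor level of 4432 CPM, between those of the other pools, while its ribosomal share was the highest. Within the knockout, pool 1 had the lowest progenitor sum, the highest rod sum and the lowest ribosomal share. In knockout pools 1 to 5 the progenitor sums were 3081, 3148, 3483, 3464 and 3685 CPM. The rod sums were 5385, 5242, 4320, 4333 and 3799 CPM, and the ribosomal shares of TPM 9.54, 9.89, 10.2, 9.83 and 9.89%. Pools 2 and 5 thus had the same share with unlike marker sums. A relation between these values was not tested.

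Of 11 ganglion cell markers, Opn4 fell and Slc17a6 rose, and the sums overlapped (1272 to 1462 and 1327 to 1442 CPM). Of 7 red blood cell markers 5 fell (sums of 74.0 to 99.6 CPM in the knockout and 110.5 to 337 CPM in the wildtype, highest in pool 3), led by the globins Hbb-bs (−1.34), Hbb-bt (−1.33) and Hba-a1 (−1.27). Of 8 lens markers tested Cryaa rose, with sums of 6.51 to 15.9 CPM in the knockout, highest in pools 1 and 2, and 6.04 to 7.11 CPM in the wildtype. Of pigment epithelium and microglia markers, 0 of 9 and 0 of 8 were called, and 0 of each at an unadjusted p under 0.05 (47.6 to 94.2 and 67.7 to 89.1 CPM, 86.8 to 96.6 and 86.7 to 111 CPM). Without wildtype pool 3 the calls of Slc17a6 and Cryaa were lost and 4 of the 7 red blood cell markers fell. The red blood cell markers called were 1 in edgeR's robust fit and 2 without knockout pools 1 and 2. The Cryaa call was also lost in the robust fit and without any one of 7 other pools, and that of Slc17a6 under upper quartile scaling and without most single pools. No marker list had a gene at 0 in all pools. The part of these cell types in the levels of the ribosomal protein genes was not tested.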

How the data were processed

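Neural retina pools (5 Opn4KO, 4 Opn4WT) were grouped by their labels. The deposited counts are whole numbers per gene symbol; no source used here names the program that wrote them. Per the submitters' processing notes, Trimmomatic 0.39, kallisto 0.46.1 and sleuth 0.30.8 were used. The deposited TPM signal is per transcript row; the authors' columns have unequal sums, and no source used here says how they were scaled. Its rows were summed per symbol here, and 188 rows with symbols of digits alone were left out. The authors' deposited table gives p-values and q-values, with effects on the natural log scale, converted here to log2. Its standard errors are deposited in the authors' other columns.

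Counts were tested with edgeR 4.0.16 (filterByExpr, TMM, quasi-likelihood, R 4.3.3), TPM with limma 3.58.1 on log2(TPM + 0.5) for symbols with at least 1 TPM in at least 4 pools, both two-sided with Benjamini-Hochberg adjustment over all features and a threshold of 0.05. DESeq2 1.42.0 was an alternative. Both tests were tested on simulated data. P-values measure the spread between pools of different animals. Positions come from GENCODE M21 (GRCm38), copies from BLAST 2.17.0 among its transcripts. Full values are given for called genes, the 3 highest and 3 lowest, paralogues with their parents, chromosome 14 and Opn4, except items that are not reported here; Rps16, Rps19, Rps26, Rps27a, Rpl7a, Rpl17, Rpl21, Rpl29, Rpl41 and the copies were chosen after their values were seen. Members and lists were chosen with earlier results of these data known.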

Additional observations from a re-analysis of the deposited data

Results flagged for a closer look

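Among genes checked singly, in 6 cases 1 pool lay far from the others of its genotype, by Dixon's criterion at the 95% level. Chance alone gives about 1 such flag in 20 groups tested. The number of groups tested is not given here, so the 6 cannot be set against chance. They do not cover the whole family: Rpl23a, at 308 CPM in knockout pool 1 against 362 to 373 CPM in the other knockout pools, is not among them. Rpl22 was at 281 CPM and Rpl39 at 163 CPM in wildtype pool 3, above the other wildtype pools (250 to 256 and 136 to 138 CPM), the same pool in which most of the family was highest. Rpl3 was at 596 CPM in knockout pool 1, below the other knockout pools (633 to 639 CPM), the pool in which most of the family was lowest. Rpl7l1 was at 89.8 CPM in knockout pool 3, above 77.2 to 80.7 CPM. Rpl3l was at 1.49 CPM in knockout pool 2, above 0.954 to 1.11 CPM. Rpl21 was at 94.5 CPM in knockout pool 5, above 66.2 to 72.7 CPM. It has 59 near-identical copies, and its own row kept 18.8% of the counts summed with them. Whether the placing of reads among the copies has a part in that value was not tested.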

How the results depend on the processing

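Of 1005 values recomputed under an alternative, 889 kept their direction and side of the threshold or moved by less than the spread of the pools. The number of ribosomal protein genes called in the counts, 1 in the fit as reported, was 4 with DESeq2, 0 with no expression filter, 0 without knockout pools 1 and 2, and 0 to 2 with each pool left out (0 without knockout pool 1, 3 or 4 or wildtype pool 1, and 2 without wildtype pool 2). With the near-identical pseudogenes summed it was 0. With the pool number as a replicate block it was 3. Same-numbered pools correlated at −0.031 to 0.0061 and the other pairs at −0.093 to 0.077, so no pairing by number was seen. The labels give no litter, so these values cannot exclude a pairing. The adjusted p of the Rpl13 log2 fold change was 0.0633 with no filter, 0.0969 without knockout pools 1 and 2, 0.0569 with the replicate block and 0.245 with copies summed. The number lower at an unadjusted p under 0.05, 27, was 7 to 44 with each pool left out (7 for wildtype pool 3, 44 for wildtype pool 4, 16 and 15 for knockout pools 1 and 4) and 6 without knockout pools 1 and 2. Calls over all genes, 760, were 1492 with DESeq2 and 486 without knockout pools 1 and 2. Without wildtype pool 3 they were 638 (2.96%), and 7.17% of all genes were lower at an unadjusted p under 0.05 (edgeR). For the other alternatives the share of all genes is not given here. The family's counts under those alternatives can therefore not be set against such a share. The median log2 fold change stayed negative, at −0.13 to −0.045 in the counts and −0.13 to −0.031 in TPM with each pool left out, and Opn4 stayed called.

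Direction turned for rows with copies or values near 0. The Rps27a log2 fold change, 0.0056, was −0.0096 with upper quartile scaling, −0.0055 with no filter, −0.10 with the replicate block, −0.12 over pools 1 to 4 without it, −0.040 with -ps rows summed, −0.046 with all near-identical copies, and −0.19 to 0.45 with each pool left out. Rpl7a, 0.049, was −0.042 with the replicate block, −0.051 without it over the same pools, −0.049 with -ps rows, −0.081 with all copies, and −0.051 to 0.18 with each pool left out. Rpl29 was −0.15 in counts and −0.070 in TPM with all copies. Among the genes followed singly, Rps14 (−0.11 to 0.0091) and Rpl7l1 (−0.063 to 0.013) crossed 0 with each pool left out. Other genes of the family turned as well. Without wildtype pool 3, Rpl10a, Rpl28, Rplp1, Rplp2, Rps2, Rps9 and Rps13 went from negative to positive values of 0.010 to 0.037. The cause was not tested. Summing all near-identical copies, pools 1 to 4 without the block, the highest and lowest pools with TPM columns of equal sums, and the summed share of members per pool without knockout pools 1 and 2 (difference −0.38 percentage points) were chosen after seeing the data.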
